A study of Mus musculus with 6 samples.

Results

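Autosomal regions that lay farther than 500 kb from the nearest transcription start site (TSS) were taken from a ChIP-seq region list of PHF13, called SPOC1 in the library names, in mouse testis. They were chosen by position alone: a chromosome from 1 to 19 and a distance to the TSS in the authors' list above 500000 bp in either direction. The rule was met by 2607 regions, which is 13.2% of the 19819 autosomal regions and 6.67% of the 39096 regions of the list. They are called desert regions here, and the 17212 autosomal regions at 500000 bp or less are called nearer regions. PHF13 has a PHD finger that binds methylated histone H3. The series holds 6 libraries from testis of C57Bl/6 mice aged 5 weeks, made with a SPOC1 antibody (1 labelled wild type, 2 labelled Phf13-/-) or from input chromatin (2 wild type, 1 Phf13-/-). For animal D821 the input is labelled wild type and the ChIP Phf13-/-, so genotype formed no groups. The list has 0 columns per library, so there is no replicate error, the depth is unknown, and whether the regions mark PHF13 could not be asked. The score is the authors' own value per region in an unstated unit, and intervals beside shares or densities are 95% intervals for counting error only.

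Gene deserts are long stretches without protein-coding genes. In mouse they often flank genes of nervous system development and cell adhesion, and they are rich in LINE-1 (L1) elements, retrotransposons that copy themselves through an RNA intermediate. L1Md_T, L1Md_A and L1Md_Gf are young mouse L1 subfamilies with members that can still move, whereas L1Md_F is an older one. LTR elements derive from retroviruses. Among them are intracisternal A particles (IAP), which are still mobile in mice, MERVL with its long terminal repeat MT2_Mm, which is transcribed in the early embryo, and the ETn and MMERVK10C elements. In the male germ line, DNA methylation and the piRNA pathway hold such elements silent.

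Only 1 desert region overlapped a RefSeq promoter window, and its sequence is shown because it is the only stretch of a desert region that the reference sequences covered. The window runs from 250 bases before to 50 bases after the start of Gm38778, a long noncoding RNA gene on chromosome 6 (27205019 to 27218476). It lies at chr6:27204769-27205068 on the plus strand in GRCm38.p6, and 299 of its 300 bases fall in an intergenic desert region (27203380 to 27205067, 1687 bp) centred on an L1Md_T element. Capitals mark CG dinucleotides.

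Gm38778 promoter window: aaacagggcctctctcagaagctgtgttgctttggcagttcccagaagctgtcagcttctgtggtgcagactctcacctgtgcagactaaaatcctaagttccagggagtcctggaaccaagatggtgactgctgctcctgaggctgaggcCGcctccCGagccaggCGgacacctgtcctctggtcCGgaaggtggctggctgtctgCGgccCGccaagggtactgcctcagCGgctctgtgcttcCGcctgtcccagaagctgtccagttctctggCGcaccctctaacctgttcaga

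The window had 59.7% G and C and 9 CG dinucleotides, against medians of 53.0% and 7 over 31396 autosomal RefSeq windows, of which 46.2% had at least as many. It also held AAGATGG, letters of the motif bound by YY1, which were found on either strand in 6.38% of those windows; the match is of letters only. The region itself had a score of 36.1, or 21.4 per kb, and the nearest start in the authors' list, that of Mir592, was 732.5 kb away. Among the nearer regions 28 (0.163%) overlapped a promoter window, and the desert share was 0.0384%. Windows were available for 18 autosomes only, while both shares were taken over the regions of all 19. A lower desert share follows from the rule, which admits a promoter window only where its start is missing from the authors' list. None of the 1005 RefSeq miRNA hairpins on the autosomes lay in a desert region. The authors' list includes starts of miRNA genes, so the rule itself leaves out regions at those hairpins, and nothing is concluded from the count.

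The desert regions were spread over all 19 autosomes. They were fewest on chromosome 19, with 29, and most numerous on chromosome 1, with 293. Their share of a chromosome's regions ran from 5.54% on chromosome 9 and 5.56% on chromosome 7 to 17.8% on chromosome 12 and 18.3% on chromosome 16. Their median distance to a TSS was 742 kb, with quartiles of 605 and 1010 kb. A distance above 1000 kb was found for 678 of them (26%), above 1500 kb for 141 and above 2000 kb for 10. The maximum was 2084 kb, for a 500 bp region at an L1Md_T element on chromosome 14 (82083849 to 82084349, score 5.52) in the desert between Olfm4 and Pcdh17. Upstream and downstream sides were close to even, with 1251 upstream (48.0%, against 49.8% of nearer regions) and 1356 downstream. By the authors' annotation 2417 (92.7%) were intergenic and 190 (7.29%) intronic, against 75.2% and 24.3% of nearer regions. None lay in a promoter, exon or termination site. For promoters this follows from the rule, which leaves out regions near a start in the authors' list.

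Whether a desert region is far from a gene depends on the gene table. Against protein-coding genes of the RefSeq table for GRCm38.p6, 1856 desert regions (71.2%) were farther than 500 kb from the nearest gene, and 240 (9.21%) were inside one. With noncoding genes and pseudogenes counted as well, 374 (14.3%) were inside a gene and 26 (0.997%) were farther than 500 kb from every gene, at most 625 kb. The median distance to any RefSeq gene was 67.1 kb for desert regions and 9.42 kb for nearer regions, and to protein-coding genes 662 and 35.5 kb. The desert regions are thus far from the starts that the authors' annotation used, and mostly far from protein-coding genes, but not from every annotated transcript. A noncoding RNA was the nearest gene in the list for 25.7% of them, against 16.7% of nearer regions.

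Of the 26 regions farthest from every gene, 11 lay on chromosome 14 and 4 on chromosome 15. The 11 on chromosome 14 fell into groups in the Olfm4 to Pcdh17 and Pcdh20 to Pcdh9 deserts, and 10 of them were at L1Md_T or L1Md_A. The 4 on chromosome 15 lay between the cadherin genes Cdh6 and Cdh9. The highest score among the 26, 144.4, belonged to an L1Md_T region of 4335 bp upstream of Brinp3 on chromosome 1 (145795161 to 145799496).

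Regions were denser far from protein-coding genes. The 2542 autosomal regions farther than 500 kb from such a gene lay in 201 Mb, or 12.6 per Mb (12.1 to 13.1), against 7.85 per Mb (7.73 to 7.97) in the other 2201 Mb, a ratio of 1.61. That stretch of the genome made up 8.39% of the length and 12.8% of the regions. Of the 2542 regions, 1856 were desert regions and 686 were nearer regions by the rule. The density thus describes that stretch and not the desert regions as chosen here. The density was higher on 19 of 19 autosomes. A permutation over the 19 chromosome differences gave p = 3.81e-06, the smallest that 19 chromosomes allow. The difference of the pooled densities was 4.77 regions per Mb and was not itself permuted. On chromosome 19 the densities were 7.94 and 5.85 per Mb, and on chromosome 4, the highest, 14.7 and 8.55 per Mb.

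Most of the rise in density lay near genes, and no step at 500 kb was seen. Inside protein-coding genes there were 4.77 regions per Mb (4.64 to 4.91), and within 10 kb of a gene 6.08 (5.77 to 6.4). From 10 to 50 kb the density was already 10.5 (10.1 to 10.8), and from 100 to 250 kb it was 12 (11.6 to 12.4). Beyond 500 kb the bands held 12.7, 11.8 and 13.1 per Mb, with intervals that overlap that of the 250 to 500 kb band (12.2, 11.7 to 12.7). These intervals treat regions that lie close together as independent, and the bands were not tested over chromosomes. Against all RefSeq genes, only 2.33 Mb lay beyond 500 kb, with 26 regions or 11.2 per Mb (7.29 to 16.4), and 8.25 per Mb elsewhere. That difference of 2.92 was not tested, and without chromosome 14 it was -0.165. Assembly gaps and sequence where reads cannot be placed were not masked.

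**Figure D1:**
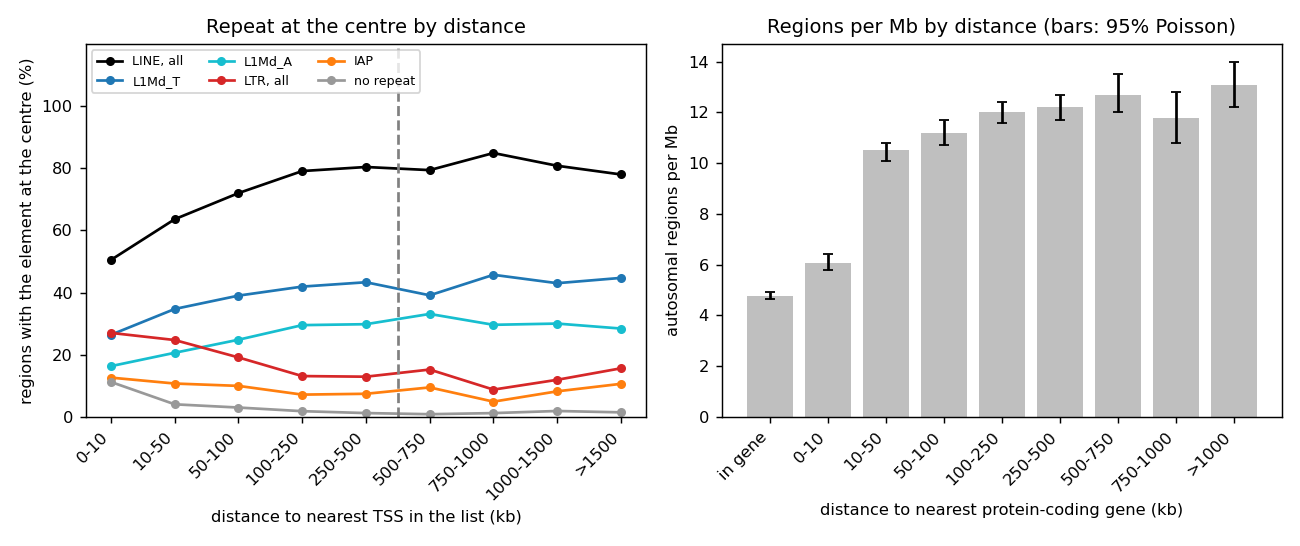
Left, percent of autosomal regions with each element at the centre (y) by distance to the nearest TSS in the list (x, kb), with the 500 kb rule as a dashed line. Right, autosomal regions per Mb (y) by distance to the nearest RefSeq protein-coding gene (x, kb), with 95% Poisson intervals as error bars; LINE shares climb from 50.5% to 80.4% before the dashed line and lie between 78.0% and 84.9% after it.

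Desert regions were more often centred on LINE elements, L1Md_A among them, and less often on LTR elements than nearer regions. A LINE was at the centre of 2108 desert regions, 80.9% (79.3 to 82.3%), against 71.3% (70.7 to 72%) of nearer regions. An LTR element was at the centre of 341, 13.1% (11.8 to 14.4%), against 18.6% (18.0 to 19.2%). No repeat was named for 30, 1.15% against 3.27%. Each comparison was made within chromosomes, as the desert value less the nearer value on the same autosome, and tested by an exact permutation over the 19 differences (two-sided, all sign flips, Benjamini-Hochberg over 10 results). Chromosomes of a single list are not replicate samples, so the p describes this list.

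The LINE share of desert regions was lowest on chromosome 11, at 64.4%, with a median of 79.2% and a maximum of 86.5% on chromosome 16. For nearer regions it ran from 62.0% (chromosome 11) through a median of 71.1% to 77.5% (chromosome 3). Both sets thus had their lowest value on chromosome 11, and the ranges overlapped between chromosomes. Within chromosomes the desert share was higher on 18 of 19, by 8.31 ± 4.9 percentage points (SD, n = 19; permutation p = 1.53e-05, adjusted p = 0.000153). Chromosome 19, with 29 desert regions, went the other way, at 65.5% and 69.2%.

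Among LINE subfamilies, the difference at L1Md_A passed the test and that at L1Md_T did not, and the 2 were not tested against each other. L1Md_A was at the centre of 819 desert regions (31.4%, 29.7 to 33.2%) and of 25.1% of nearer ones. By chromosome its desert share ran from 20.7% (chromosome 19) through 31.7% to 40.2% (chromosome 3). It was higher than that of nearer regions on 17 of 19, by 6.05 ± 5.25 points (SD, n = 19; permutation p = 0.000198, adjusted p = 0.000992). Chromosomes 18 and 19 were the exceptions. The call ended in the 50% of regions with the higher score (3.74 points, permutation, adjusted p = 0.0828) and with the rule at 1000000 bp (6.29 points on 15 chromosomes, adjusted p = 0.401).

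L1Md_T was the most frequent element, at 1088 desert regions (41.7%, 39.9 to 43.6%) and 38.3% of nearer ones. By chromosome its desert share ran from 20.5% (chromosome 11) through 42.0% to 51.9% (chromosome 5). The difference of 2.46 ± 7.54 points did not pass the test (higher on 13 of 19, permutation p = 0.172, adjusted p = 0.344), with an interval of -1.18 to 6.09 points. It did pass with a desert defined as 250 kb from a TSS (5.66 points, adjusted p = 0.000343) or as 500 kb from a protein-coding gene (3.32, adjusted p = 0.0367), and with 1 region kept per cluster (4.43, adjusted p = 0.0213), all by permutation. L1Md_T and L1Md_A together held 73.1% of desert regions (71.4 to 74.8%) and 63.4% of nearer ones.

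The smaller LINE groups went in both directions. L1Md_F, the older subfamily, was less frequent, at 85 desert regions (3.26% against 4.66%). It was lower on 15 of 19 chromosomes, with adjusted p = 0.0101 by permutation over a set of 7 results added after the list was seen. L1Md_Gf held 41 desert regions (1.57% against 0.999%, permutation, adjusted p = 0.101). The family L1_Mm held 52 (1.99% against 1.2%), as part of the other LINE elements, whose share of 2.88% against 2.24% did not pass (adjusted p = 0.222, permutation). The larger LINE share of desert regions was therefore mostly L1Md_A and L1Md_T by count.

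**Figure D2:**
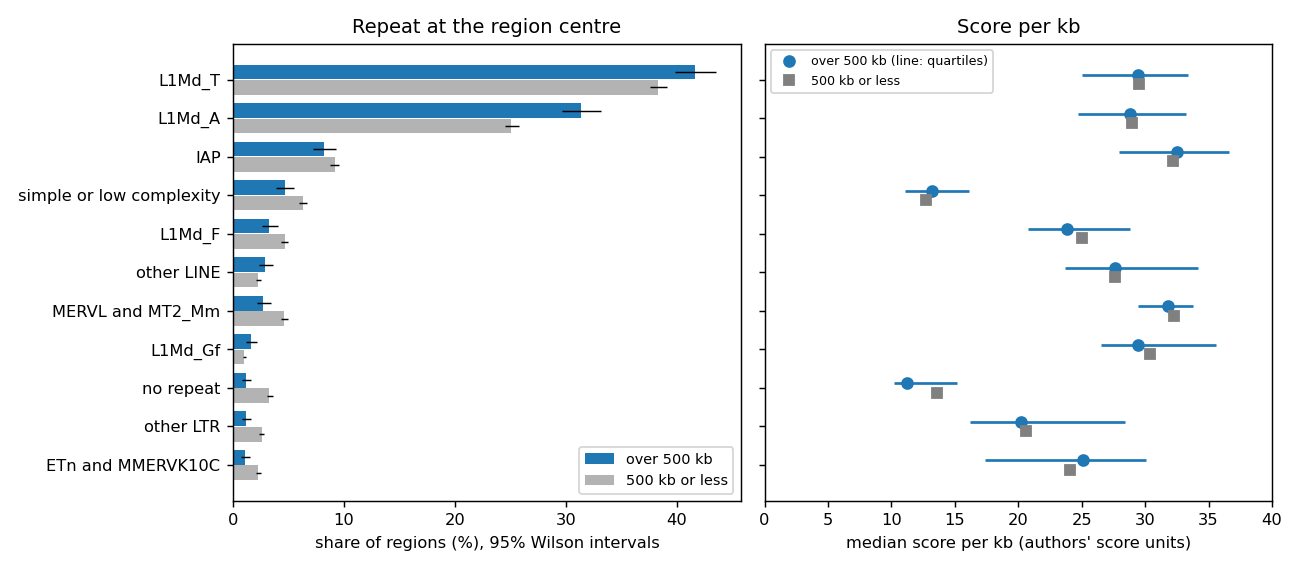
Left, percent of desert regions (blue) and nearer regions (grey) with each repeat group at the centre, with 95% Wilson intervals. Right, median score per kb of the same groups, with quartiles as lines for desert regions; L1Md_A differs most in share (31.4% and 25.1%), while its median score per kb is 28.8 and 29.0.

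Among LTR elements, MERVL, ETn and the smaller families were less frequent in deserts, while the difference at IAP did not pass the test. LTR elements as a class had desert shares from 7.83% (chromosome 15) through 13.2% to 31.5% (chromosome 11). They were lower than in nearer regions on 16 of 19 chromosomes, by 4.64 ± 4.65 points (SD, n = 19; permutation p = 0.00071, adjusted p = 0.00237). Chromosomes 9, 11 and 19 had a higher desert share. IAP elements were at 214 desert regions, 211 of them at IAPEz-int, or 8.21% (7.22 to 9.32%) against 9.15% (8.73 to 9.59%). That difference, -0.511 ± 3.42 points, did not pass (lower on 13 of 19, permutation p = 0.528, adjusted p = 0.754). It did pass with the rule at 250000 bp (-2.13 points, adjusted p = 0.00184) and by distance to protein-coding genes (-1.76 points, adjusted p = 0.0367), both by permutation.

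MERVL and MT2_Mm were less frequent, at 70 desert regions (2.69% against 4.6%; lower on 14 of 19, adjusted p = 0.00433 by permutation). ETn and MMERVK10C held 27 (1.04% against 2.25%) and were lower on 18 of 19 chromosomes (adjusted p = 0.0101, permutation). The remaining LTR elements held 30 (1.15% against 2.57%, adjusted p = 0.00222, permutation). Simple and low complexity repeats were also less frequent, at 121 desert regions (4.64% against 6.32%, adjusted p = 0.0101, permutation). In the higher scoring 50% of regions the calls for L1Md_F (-0.747 points), ETn and MMERVK10C (-1.06), the remaining LTR elements (-0.385) and simple and low complexity repeats (-0.413) ended. With the rule at 1000000 bp those for MERVL and MT2_Mm (-1.55), the remaining LTR elements (-1.14) and simple and low complexity repeats (-0.605) ended. Regions without a repeat were lower by 1.71 ± 2.77 points (lower on 14 of 19, permutation p = 0.00918, adjusted p = 0.023). That call ended with nearer regions limited to intergenic ones (-1.09 points, permutation, adjusted p = 0.339). SINEs (3 desert regions, 0.115% against 0.18%) and satellites (3, 0.115% against 0.145%) were rare in both sets. How much sequence of each element lies at these distances was not analysed here, so none of these differences is an enrichment over the sequence present.

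**Figure D3:**
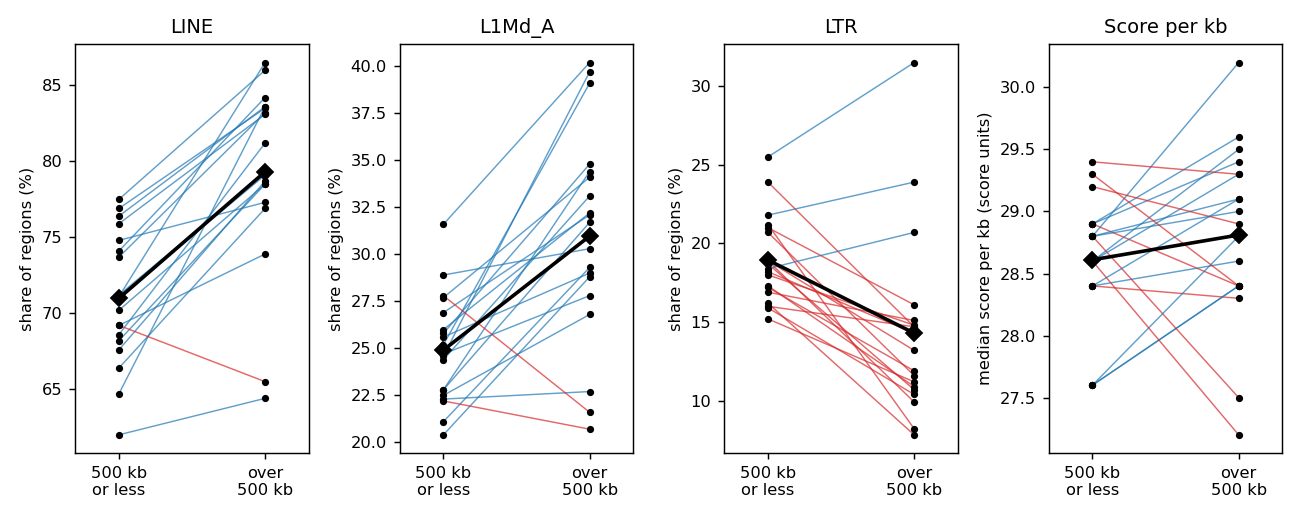
Share of regions at LINE, L1Md_A and LTR elements (y, %) and median score per kb (y, score units) for nearer and desert regions, with 1 line per autosome (blue where the desert value is higher, red where it is lower) and black diamonds for the mean over 19 autosomes. LINE rises on 18 lines and L1Md_A on 17, LTR falls on 16, and score per kb rises on 12 and falls on 7.

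Most of the change in the mix of elements lay within 250 kb of a TSS. The LINE share was 50.5% within 10 kb, 63.6% at 10 to 50 kb, 72% at 50 to 100 kb, 79.1% at 100 to 250 kb and 80.4% at 250 to 500 kb. Across the desert bands it was 79.4%, 84.9%, 80.8% and, beyond 1500 kb, 78.0%. The LTR share fell from 27.0% within 10 kb to 12.9% at 250 to 500 kb and was 15.2%, 8.74%, 11.9% and 15.6% in the desert bands. Regions without a repeat made up 11.2% within 10 kb, 1.19% at 250 to 500 kb and 0.825% at 500 to 750 kb.

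Set against the 3107 regions at 250 to 500 kb only, a comparison added after the list was seen, desert regions passed the test for none of the 10 results. The LINE difference was -1.08 points, with an interval of -4.8 to 2.63 (permutation, adjusted p = 0.904). L1Md_A was closest to a call, at 1.92 points and an interval of -0.199 to 4.03 (unadjusted permutation p = 0.0738, adjusted p = 0.738). No result had an unadjusted p under 0.05. The calls for L1Md_F, MERVL and MT2_Mm, ETn and MMERVK10C, the remaining LTR elements and simple repeats ended as well (adjusted p = 0.643 for each, permutation). The LTR difference turned to 1.74 points (-2.02 to 5.5). The differences given above thus lay between desert regions and regions within 250 kb of a TSS, and no change at the 500 kb rule itself was detected. The 3 regions on each side of the rule are given as a description. Just inside were an L1Md_A region near Gm5415 (500072 bp, score 23.1), an L1Md_T region near Cpeb2 (500177 bp, 8.07) and an L1_Mm region near Prim2 (500275 bp, 11.7). Just outside were a MERVL-int region near 2410018L13Rik (499953 bp, 17.2), an L1Md_A region near Kcnd2 (499866 bp, 9.13) and an L1Md_T region near 8030423J24Rik (499840 bp, 17.8).

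To name the deserts, each interval between neighbouring protein-coding genes that held at least 1 desert region is called a gene desert here, whatever its length. There were 240 such intervals with 2367 desert regions (90.8%); the other 240 desert regions lay inside genes. The intervals had a median length of 1.47 Mb and a median of 7 desert regions, and 25 held only 1. Of the 240 intervals, 45 were at most 1 Mb long and held 178 desert regions, and the shortest, between the predicted genes Gm6943 and Gm9257 on chromosome 12, was 0.0424 Mb, so the name does not describe all of them. The 87 deserts with 10 or more held 1708 (65.5% of all), and the 12 with the most held 456 (17.5%). The rule used starts in the authors' list and the intervals used RefSeq genes, so the part of an interval that the rule admits differs between intervals.

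The desert with the most regions lay on chromosome 2 between Lrrc4c, which encodes the synaptic adhesion protein netrin-G ligand 1, and Iftap (97631673 to 101560778). It held 55 desert regions in 3.93 Mb, or 14.0 per Mb, with 17 at L1Md_T, 15 at L1Md_A and 7 at IAP. It also held both desert regions at GSAT_MM, the major satellite, whose tandem arrays make up mouse pericentromeres. Without them its highest score was 155 in place of 1161.8.

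Protocadherins, cell adhesion proteins of the cadherin superfamily with roles in neural wiring, bounded 3 of the next 4. The longest desert, between Pcdh20 and Pcdh9 on chromosome 14 (88471397 to 93013699), held 43 in 4.54 Mb. The Stim2 to Pcdh7 desert on chromosome 5 (54121058 to 57716144) held 41 in 3.6 Mb, of which 28 were at L1Md_T and 7 at L1Md_A. The D3Ertd751e to Pcdh10 desert on chromosome 3 (41803308 to 45378397) held 40 in 3.58 Mb, with 17 and 15. The Brinp3 to Pla2g4a desert on chromosome 1 (146902473 to 149829617) also held 40, in 2.93 Mb. All 40 were at a LINE (32) or an LTR element (8).

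Chromosome 1 held another pair of the 12, both at a Cntnap5 gene, of the contactin-associated family of neuronal adhesion proteins. Between Cntnap5b and Cdh20 (100490600 to 104768339) there were 37, with more at L1Md_A (17) than at L1Md_T (12). Between Dsel and Cntnap5a (111865053 to 115684736) there were also 37, with 15 at L1Md_T and 11 at L1Md_A. The other 5 of the 12 held 31 to 34 each. They were Lrfn5 to Fscb (chromosome 12), Cox7c to Edil3 (chromosome 13), Ncam2 to Mrpl39 (chromosome 16), Hace1 to Grik2 (chromosome 10) and Tenm3 to Aga (chromosome 8). Cox7c to Edil3 had 13 at L1Md_A, 8 at L1Md_T and 6 at IAP. In Tenm3 to Aga 16 were at L1Md_T and 10 at L1Md_A.

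Among deserts with 10 or more desert regions, those with the most per Mb were mostly shorter. This rank depends on how much of an interval the rule admits, so the density of all regions is given beside it. Mmp16 to Cnbd1 on chromosome 4 (18117480 to 18767979) had 12 in 0.65 Mb, or 18.4 per Mb (23.1 for all regions), of which 8 were at L1Md_T. Cntnap5a to B020011L13Rik on chromosome 1 (116587324 to 117781134) had 19 in 1.19 Mb, or 15.9 per Mb (15.9 for all regions), with 15 at L1Md_T and 1 at L1Md_A. Epm2a to Utrn on chromosome 10 (11459665 to 12382186) had 14.1 per Mb (21.7 for all regions), with 7 at L1Md_A and 4 at L1Md_T. Grin3a to Cylc2 on chromosome 4 (49846024 to 51216652) had 13.1 per Mb (22.6 for all regions). Lrrc4c to Iftap and Brinp3 to Pla2g4a were the other 2 of these 6, so they ranked high by both measures.

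**Figure D4:**
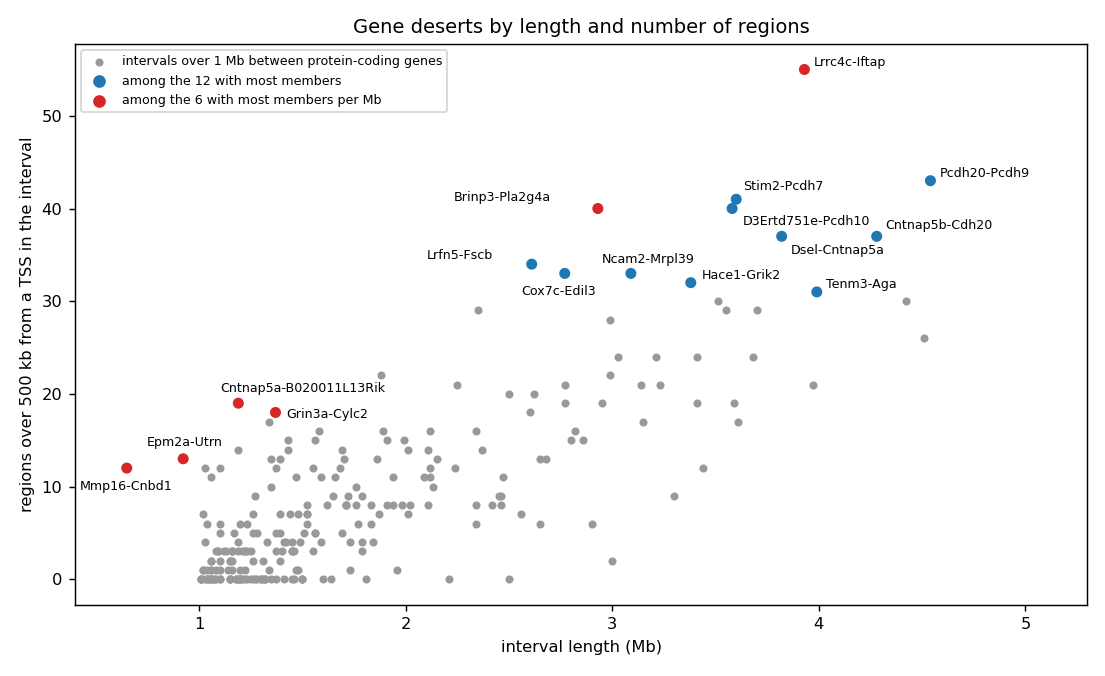
Number of desert regions (y) against interval length (x, Mb) for the intervals over 1 Mb between neighbouring protein-coding genes (grey), with the named deserts in colour: blue for the 12 with most desert regions, red for the 6 with most per Mb, 2 of which are among the 12. Longer intervals mostly hold more, from 0 in many intervals of 1 to 2 Mb to 43 in the 4.54 Mb Pcdh20 to Pcdh9 desert, and Lrrc4c to Iftap stands highest with 55.

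The deserts varied widely in their L1 subfamilies. Over the 87 deserts with 10 or more desert regions, the median score per kb ran from 23.4 to 35.2, with a median of 28.8. The LINE share ran from 54.5%, in Pcdh17 to Diaph3 and Pom121l12 to Vstm2a, to 100%, with a median of 81.8%. L1Md_T outnumbered L1Md_A in 51 of them, the reverse held in 26, and they were equal in 10. The share of L1Md_T within the 2 subfamilies ran from 0% in Pom121l12 to Vstm2a on chromosome 11 (0 and 5 regions) to 93.8% in Cntnap5a to B020011L13Rik (15 and 1). Other deserts rich in L1Md_A were Otol1 to Sis on chromosome 3 (13 at L1Md_A, 2 at L1Md_T) and Cdh18 to Basp1 on chromosome 15 (9 and 1), both singled out after their values were seen. With 10 to 55 regions per desert, such shares are coarse. IAP elements were in 59 of the 87, with 8 in Cdh8 to Cdh11 as the highest count. In 29, all desert regions were at LINE or LTR elements.

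No long interval between protein-coding genes was free of regions. The 246 autosomal intervals over 1 Mb held 5585 regions in 447 Mb, or 12.5 per Mb, and 0 of them had none. Of these, 195 held desert regions, 2189 in all. Among the 72 intervals over 2 Mb, 70 did. The exceptions were Adam6a to Zfp386 on chromosome 12, with 28 regions in 2.5 Mb, and Bcl11a to Fancl on chromosome 11, with 18 in 2.21 Mb, all within 500 kb of a start in the authors' list.

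Genes listed for neuronal adhesion often bordered the deserts. Of 46 genes on a list named for synaptic adhesion, 23 (50%) flanked a desert, against 427 (2.08%) of 20560 protein-coding genes. The list is broad, and the 23 include Ctnna2, Csmd1, Csmd3 and Adgrl4, not all of which encode synaptic adhesion proteins. Of 90 cadherins and protocadherins 16 (17.8%) did, and of 63 developmental transcription factors 15 (23.8%). For 25 spermatogenesis genes the count was 0, which in so short a list is near the 2.08% over all genes. Of 351 vomeronasal receptors 0 flanked a desert, and Olfr161 was the only flanking gene among 1103 olfactory receptors. The counts depend on where genes lie, since a desert is an interval between genes. Beside an interval over 1 Mb, 21 of the 22 genes on the synaptic adhesion list flanked a desert. So did 16 of 17 cadherins and 14 of 19 transcription factors, against 361 of all 455 protein-coding genes beside such intervals. How far position accounts for the counts was not tested. The lists were drawn up with earlier results known, and the counts are a description without a test.

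Among the listed genes only, the number of desert regions in the flanked deserts was highest for adhesion genes. Genes on no list that share these deserts, such as Iftap, were not ranked. A desert counts for both of its flanking genes, as with Pcdh20 and Pcdh9, and a flanking gene need not be the nearest. Lrrc4c had 77 on its 2 sides together, Cntnap5a 56, Cntnap5b 42 and Tenm3, a teneurin, 31. Among cadherins Pcdh7 had 65, Pcdh9 58, and Cdh8 and Pcdh20 45 each. Among transcription factors Zeb2, a zinc finger repressor of neural crest and neuronal development, had 29. Pou3f2, a POU factor of neurons, had 14, and the orphan nuclear receptor Nr2f1 had 13. By the nearest gene in the authors' list, Pcdh7, Pcdh20, Tenm3 and Zeb2 had 0 desert regions each and Cntnap5b had 5. Lrrc4c had 40 by that measure, Cntnap5a 30, Pcdh9 23, Cdh8 21, Pou3f2 10 and Nr2f1 9. A desert with 10 or more was flanked by 3 of the 63 transcription factors (4.76%), 15 of 46 synaptic adhesion genes (32.6%) and 15 of 90 cadherins (16.7%), against 0.803% of all protein-coding genes.

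By the nearest gene in the authors' list, the desert regions belonged to 420 genes. Of these, 86 had 10 or more and 59 had 1. Lrrc4c was nearest to 40, with 29 downstream of its start and 11 upstream, at up to 2000 kb. Cntnap5a was nearest to 30, the noncoding gene 4930474H20Rik to 27 and Rag2, of the V(D)J recombinase, to 26, all upstream. The next were Gm10440, Gm20268, Nlgn1, Pcdh9 and Pla2g4a with 23 each, and 2610316D01Rik, Brinp3 and Efnb2, which encodes ephrin-B2, with 22 each. The first 10 held 260 desert regions, 9.97% of the total, so no gene or small group of genes took most of them.

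Most desert regions inside genes lay in long ones. The 240 inside protein-coding genes fell in 45 genes, of which 20 held 5 or more and 183 together, and these 20 were 0.837 to 2.27 Mb long. Short predicted genes were also among the 45, down to Gm40853 (0.0354 Mb, 1 desert region). Lrp1b, a receptor of the LDL receptor family, is 2.06 Mb long and held 17, of which 7 were at L1Md_T and 3 at L1Md_A, with scores from 6.8 to 68.4. Naaladl2 (1.35 Mb) also held 17, with scores from 9.98 to 137.6. All 17 were annotated as intergenic in the list, as were all 10 in Lsamp and all 8 in Lrrc4c, so the authors' annotation and the RefSeq table differ at these genes. In all, 50 of the 240 were annotated as intergenic.

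Several of the other hosts encode neuronal receptors or adhesion proteins. Cntnap2, of the contactin-associated family, held 16 (9 at L1Md_A, 5 at L1Md_T). The receptor phosphatase gene Ptprd held 13 (9 at L1Md_T) and the metabotropic glutamate receptor gene Grm7 11 (7 at L1Md_A). Ccser1 and Csmd1 held 10 each, and Erbb4, a receptor for neuregulins, 9. Ctnna3, which encodes alpha-T-catenin, Fhit and Sntg1 held 8 each. Fhit had 7 at L1Md_T and 1 at L1Md_A, whereas Sntg1 had 1 and 6. Gpc5, Macrod2, Pcdh9, Csmd3, Sgcz, Sugct and Lrrc4c held 5 to 8 each.

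With the rule as set, desert regions did not differ in length from nearer regions beyond the spread over chromosomes. Their median length was 671 bp (quartiles 500 and 1189, maximum 6363) against 678 bp, and 37.1% against 36.8% were exactly 500 bp. The mean difference of the chromosome medians was -1.47 ± 69.7 bp (SD, n = 19; permutation p = 0.928, adjusted p = 0.928), with an interval of -35.0 to 32.1 bp. The direction depended on the setting. In 6 of the alternatives listed at the end desert regions were longer, and whether those differences passed is not given here. The sign was kept without passing in 4, and kept with a pass in 2, both at L1Md_A only. Lengths over 3000 bp were found for 178 (6.83% against 6.44%), and over 5000 bp for 59 (2.26% against 1.92%). Of the 96 desert regions over 4000 bp, 68.8% were at L1Md_T, 26% at L1Md_A and 0 at LTR elements. The longest, 6363 bp at L1Md_T on chromosome 12 (62960746 to 62967109), lay in the Lrfn5 to Fscb desert, and the next, 6310 bp at L1Md_A on chromosome 1 (101928049 to 101934359), in Cntnap5b to Cdh20.

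The score per kb did not differ beyond its spread either. Its median was 28.8 (quartiles 23.8 and 33.3) against 28.6, and the mean difference of the chromosome medians was 0.213 ± 0.789 (higher on 12 of 19, permutation p = 0.252, adjusted p = 0.421), with an interval of -0.168 to 0.593. The median score was 20.2 (quartiles 13.6 and 37.8) against 19.7, with a difference of 0.187 ± 1.86 (permutation p = 0.669, adjusted p = 0.836). Among regions longer than 500 bp both passed, at 0.395 per kb (higher on 16 of 19, permutation, adjusted p = 0.00703) and 2.13 (higher on 15 of 19, adjusted p = 0.00267). With 1 region kept per cluster the score per kb also passed (0.523, higher on 14 of 19, permutation, adjusted p = 0.0413). Desert regions held 13.2% of the summed autosomal score, or 13.8% without the 1 highest autosomal region, close to their 13.2% of the regions. The region left out was a nearer one, while the GSAT_MM pair of desert regions was kept, so that removal could only raise the desert share.

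Within desert regions the element at the centre went with the score per kb. Its median was 29.4 at L1Md_T, 28.8 at L1Md_A, 32.5 at IAP, 31.8 at MERVL and MT2_Mm and 31.0 at L1_Mm. It was lower at L1Md_F, with 23.8, at simple and low complexity repeats, with 13.2, and where no repeat was named, with 11.2. Length moved with it too, since the groups at 13.2 and 11.2 had a median length of 500 bp, and regions of 500 bp had 25.4 per kb over all elements against 32.1 for those of 2000 to 4000 bp. The parts of element and length were not told apart.

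At L1Md_A, desert regions were shorter and lower in score than nearer regions. The median length was 744 bp at the 819 desert regions and 784 bp at nearer L1Md_A regions. Within chromosomes it was lower on 15 of 18, by a mean of -70.4 ± 75.1 bp (SD, n = 18; permutation, adjusted p = 0.00233). The median score was 20.6 against 22.5, with a mean difference of -2.2 ± 2.34 (lower on 15 of 18, adjusted p = 0.00233, permutation). The score per kb, at 28.8 and 29.0, did not pass (-0.415, permutation, adjusted p = 0.138). These p-values, like those that follow, were adjusted over length, score and score per kb only. With nearer regions limited to intergenic ones, an alternative added after the list was seen, the differences were -56.9 bp (adjusted p = 0.0097) and -1.57 (adjusted p = 0.0158), both by permutation. At L1Md_T the median score was 22.7 and 23.6, and the difference of -0.516 did not pass (adjusted p = 0.826, permutation). Whether the 2 subfamilies differ in this was not tested.

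The regions with the highest scores were satellites and long L1 regions. The GSAT_MM pair on chromosome 2 (98661878 to 98665462 and 98665973 to 98667638) had scores of 1161.8 and 1140.2, or 324 and 685 per kb, while the third satellite region, at IMPB_01 on chromosome 3, had 10.6. The list has no input value, so whether input is also high at the pair could not be asked. The other 6 of the top 8 were L1 regions of 4833 to 6363 bp with scores from 203.9 to 223.2. They lay in the Cntnap5b to Cdh20 (L1Md_A, 223.2), Lrfn5 to Fscb (214.1), Ncam2 to Mrpl39 (207.1), Igfbp3 to Tns3 (206.6) and Lingo2 to 1700009N14Rik (204.3) deserts, the last 4 at L1Md_T, and in Nectin3 to Gm52257 (L1Md_A, 203.9).

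By score per kb, the satellites were followed by 6 regions of 500 bp each. A (TAGA)n repeat near Htr1a on chromosome 13 (106066946 to 106067446) had 60.8 per kb. An L1Md_A region upstream of Tenm4 on chromosome 7 (94847095 to 94847595) had 59.0. The other 4 were at L1Md_T, with 52.2 to 57.4 per kb, in the Zeb2 to Acvr2a, Stxbp6 to Nova1, Gm15501 to Tenm4 and Grin3a to Cylc2 deserts. The Gm15501 to Tenm4 desert thus held 2 of the 8.

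Desert regions often came in tight groups, and within 10 kb their spacing did not differ from that of nearer regions beyond the spread over chromosomes. The median gap to the nearest region was 4.32 kb (quartiles 0.991 and 39.0) against 4.58 kb (1.0 and 46.9). A neighbour lay within 1 kb for 25.4% of desert regions and within 10 kb for 55.6%, against 24.9% and 55.5%. The difference within 10 kb was -0.262 ± 6.07 points (SD, n = 19; permutation p = 0.856, adjusted p = 0.928), with an interval of -3.19 to 2.67. At 50 kb the shares were 79.4% and 76.0%, higher in deserts on 16 of 19 chromosomes by 3.78 points (permutation p = 0.000343). No desert region was farther than 395 kb from the next, whereas the maximum for nearer regions was 1900 kb.

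**Figure D5:**
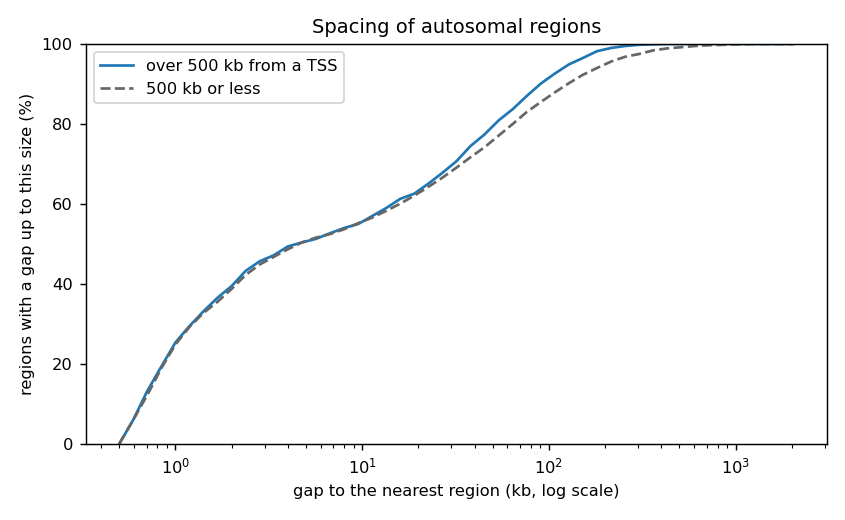
Percent of desert regions (solid blue) and nearer regions (dashed grey) whose nearest region lies within a given gap (x, kb, log scale). The curves lie together up to 10 kb (55.6% and 55.5%) and part above it (91.3% and 86.9% within 100 kb).

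Most groups spanned a few kb and held a single kind of element. Regions joined by gaps of at most 10 kb formed 1760 clusters of desert regions only, of which 1158 (65.8%) were single regions, 421 pairs, 139 triplets and 42 larger. Of the 602 clusters with more than 1 region, 469 (77.9%) held a single repeat group, and the median span was 4.8 kb (quartiles 3.26 and 5.85). A span of at most 7.5 kb was found for 493 of them (81.9%). The same values for nearer regions were 65.7% single, 77.2% of a single group, 4.89 kb and 81.7%. Regions in such a cluster may share an element and are not independent members. With 1 region per cluster, the LINE share was 80.1% against 70.0% and the LTR share 12.5% against 17.8%.

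The largest clusters mixed families. On chromosome 4, 6 desert regions in 15.0 kb upstream of Grin3a (50520697 to 50535664) comprised 3 at L1Md_Gf, 2 at L1Md_A and 1 at L1Md_T. On the same chromosome 6 in 23.8 kb near Tyrp1 (79555824 to 79579584) comprised 3 at L1Md_A, 2 at IAPEz-int and 1 at L1Md_T. A cluster of 5 in 19.7 kb near Pou3f2 (23093683 to 23113408) had 2 each at L1Md_T and L1Md_A and 1 at MTA_Mm-int.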

How the data were processed

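The deposited file is 1 list of regions for the whole series. Per the submitters' processing notes, Bowtie2 2.2.2, SAMtools and HOMER 4.6 were used with the mouse build mm10; no roles are given. Per the file headers, the list was written by HOMER's annotation program. The libraries and peak settings behind it are not given in the sources used here. Each region carries a score deposited by the authors, whose unit is not stated, and it was used only within the list. The nearest gene, the signed distance to its TSS, the annotation class and the repeat at the centre were taken from the list. Depth per library is unknown.

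Region centres were placed against RefSeq genes in GRCm38.p6, the assembly of mm10 (418 of the 420 nearest genes of desert regions matched by gene number); genes starting below 3 Mb carry scaffold coordinates and were not used. Promoter windows came from RefSeq for 18 autosomes. For each autosome with at least 10 desert regions, the value over desert regions less that over nearer regions was computed. The mean difference was tested by enumerating all sign flips (two-sided), with intervals from the SD over chromosomes. Benjamini-Hochberg adjustment at 0.05 was over 10 results, and over 7 repeat groups added after the list was seen. For L1Md_A or L1Md_T regions alone it was over length, score and score per kb. The test was checked on simulated data. Regions per Mb was planned against all RefSeq genes; too little sequence lies beyond 500 kb of them, so the test was made against protein-coding genes. Shares have Wilson and densities Poisson 95% intervals. Score per kb is score divided by length.

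Named were the 12 deserts with most desert regions and the 6 with most per Mb among those with at least 10, the 10 most frequent nearest genes, host genes with 5 or more, the 8 highest regions by score and by score per kb, the 3 nearest the rule on each side, repeat families at 1% or more, and 6 gene lists; 1 host gene is not reported here. The members and lists were chosen with earlier results of these data known. The software was SciPy 1.17.1, NumPy 2.4.6 and pandas 2.3.3 in Python 3.11.15, with matplotlib 3.10.9 for plots.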

Additional observations from a re-analysis of the deposited data

How the results depend on the processing

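Differences below are desert less nearer regions, in percentage points for shares, bp for length and score units for scores. The LINE, L1Md_A, LTR and no-repeat differences kept their direction with the rule at 250000 or 1000000 bp, with intergenic nearer regions, in the higher scoring 50% and among regions over 500 bp long. With the rule at 1000000 bp, where 15 chromosomes had enough regions, they no longer passed (6.48, 6.29, -4.79 and -1.46). That setting left fewer desert regions and chromosomes and counted regions at 500000 to 1000000 bp as nearer ones. The cause was not tested. With intergenic nearer regions only, the no-repeat difference (-1.09) did not pass and that of length was 11.4. In the 50% of regions with the higher score, L1Md_A (3.74) did not pass and length was 19.5. With the rule at 250000 bp, L1Md_T (5.66) and IAP (-2.13) passed, and length (4.76) and the share with a neighbour within 10 kb (1.02) turned. Among regions over 500 bp long, length was 51.8, and score (2.13) and score per kb (0.395) passed. At L1Md_T only, score was -0.516; at L1Md_A only, length (-70.4) passed and score (-2.2) and score per kb (-0.415) turned. A neighbour within 50 kb gave 3.78. Alternatives added after seeing the data were as follows. By distance to protein-coding genes, L1Md_T (3.32) and IAP (-1.76) passed and length was 41.3. With 1 region per cluster, L1Md_T (4.43) and score per kb (0.523) passed and length was 41.1. Against regions at 250000 to 500000 bp, LINE (-1.08), L1Md_T (-2.95), LTR (1.74), IAP (1.72), score (-0.0684) and MERVL with MT2_Mm (0.639) turned, and L1Md_A (1.92) and no repeat (-0.133) did not pass. At L1Md_A with intergenic nearer regions, length was -56.9, score -1.57 and score per kb -0.507. Without satellites no call changed. The causes of these changes were not tested.

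Leaving out each chromosome in turn changed no call among the 10 results. The ranges were 7.73 to 8.98 for LINE, 5.55 to 6.73 for L1Md_A, 1.82 to 3.21 for L1Md_T, -5.24 to -4.18 for LTR, -1.01 to -0.173 for IAP and -1.92 to -1.35 for no repeat. They were -8.0 to 5.5 for length, -0.0194 to 0.347 for score, 0.147 to 0.301 for score per kb, -0.728 to 0.593 for a neighbour within 10 kb and -0.165 to 6.1 for regions per Mb against all RefSeq genes, the lowest without chromosome 14. Among the added repeat groups, L1Md_Gf passed without chromosome 9 (0.825), and it also passed in 1 of the alternatives other than leaving out a chromosome. The 10 results with deserts defined by distance to every RefSeq gene, and regions per Mb at 1000000 bp, were not run, since too few regions or chromosomes were left. No paired analysis was possible because no column of the list belongs to a library, and for the same reason no replicate could be left out. With depth unknown, a region absent from the list cannot be told apart from 1 below the authors' threshold.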
